A study of Mus musculus with 4 samples.

Results

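Histone lysine methylation writers and erasers are the enzymes, with their core partner subunits, that place methyl groups on the lysines of histone tails and take them off again. The 41 genes described here were chosen by name, with earlier results of these data already known, and stand for the residues H3K4, H3K9, H3K27, H3K36 and H3K79. There were 26 writers and 15 erasers among the 20701 gene symbols of the table, and each gene was read from the transcript entry with the highest summed count. Of the 41 genes, 39 passed the filter on low counts.

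Methylation of H3K4 marks promoters and enhancers in use, methylation of H3K36 and H3K79 follows transcribed gene bodies, and methylation of H3K9 and H3K27 marks silenced chromatin. Catalytic writers carry mostly a SET domain, which Dot1l lacks, while erasers are flavin-dependent amine oxidases (Kdm1a and Kdm1b) or Jumonji oxygenases (the other Kdm genes). Several of them are known to be needed in heart development, among them the H3K27 methyltransferase subunits Ezh2 and Jarid2, the H3K4 methyltransferase Kmt2d and the H3K79 methyltransferase Dot1l.

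RNA was sequenced from mouse cardiac progenitors made in culture from the E14 embryonic stem cell line with an Nkx2-5-EmGFP transgene, which turns on green fluorescence in cells using the cardiac gene Nkx2-5. The stem cells had been kept on mouse embryonic fibroblast feeders, were differentiated for 5 days, and the GFP-positive cells were sorted. The 2 control libraries carried the reporter without an Isl1 lesion, and the 2 Isl1_KO libraries carried it in CRISPR/Cas9-edited Isl1-/- cells, which lack Isl1, a LIM-homeodomain transcription factor of second heart field progenitors. Both groups shared line, reporter, day and sort, and each library was said to come from a clone of its own, so that differences between clones and those of genotype cannot be told apart with so few clones. The comparison asked whether the genes for the histone methylation machinery differed when Isl1 was missing.

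The kept entries held 8821517 to 13186109 counts a library, of which the members took 0.589 to 0.620%. Counts of Isl1 were 309 in control 1, 326 in control 2, 17 in Isl1_KO 1 and 24 in Isl1_KO 2, with a log2 fold change of -4.40 (SE 0.21, adjusted p 0.00277). Nkx2-5, the gene of the sort, fell as well by 2.17 on the log2 scale. The library Isl1_KO 2 stood apart in the genes listed as fibroblast feeder markers. Whether their reads came from feeder cells or from the sorted cells was not tested. The 10 markers summed to 828 CPM (counts scaled to library size) in Isl1_KO 2 against 1910 in Isl1_KO 1 and 2586 and 2629 in the control libraries. Of these 10, 8 had a log2 fold change below 0 and none passed the test. Col3a1, the collagen with the widest gap between the Isl1_KO libraries, had 6026, 5929, 5578 and 639 counts in control 1, control 2, Isl1_KO 1 and Isl1_KO 2, whereas Fbln2 had 90.6, 87.2, 125 and 115 CPM. All 20 cell cycle markers had a log2 fold change above 0, from 0.086 to 0.46, without passing the test, and their sums were 4386 and 4349 CPM in control and 5096 and 5725 CPM in Isl1_KO. Of the 14 cardiac progenitor markers 9 passed the test, all of them lower in Isl1_KO, against 2.45% of all tested genes (1.94% lower). The 9 include Isl1 itself, the edited gene, and Nkx2-5, while 2 of the 14, Hand1 and Kdr, were above 0. Pluripotency genes summed to 131 to 133 CPM in control and 82.2 to 109 in Isl1_KO, where Tdgf1 alone went from 39.6 and 40.4 to 3.31 and 20.7 CPM. Of the 7 of them tested, 3 (Pou5f1 among them, at 0.86 on the log2 scale) were above 0 and 4 below, and none passed. Endothelium and blood genes summed to 592 to 606 CPM in control and 384 to 521 in Isl1_KO, of which Hbb-bh1, an embryonic globin, held 284, 293, 160 and 42.0 CPM. Of their 10 genes, 6 were above 0, and the 1 that passed, Runx1, was higher (log2 fold change 0.57, adjusted p 0.0335). Endoderm genes lay at 144 to 147 and 135 to 145 CPM with 4 of 9 above 0 and none past the test, and neural genes at 50.6 to 51.1 and 30.0 to 37.7 CPM with 1 of 6 above 0 and 1 past the test, lower. The part of these shifts in the values below was not tested, and in sorted bulk cells fewer cells of a type and less RNA per cell cannot be told apart.

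Sequences upstream of 4 genes are shown, those of 3 members beside that of a muscle-restricted family relative. Kdm7a and Jarid2 had the lowest adjusted p-values of the members, Ezh2 is the main H3K27 methyltransferase, and Smyd1, a muscle-specific SET-domain gene outside the 41, is described further on. Each line gives the 250 bases that end just before the transcription start, read 5′ to 3′ on the strand of the gene, with every CpG dinucleotide in capitals. They come from RefSeq on GRCm38.p6, at chr6:39206774-39207023 (minus strand), chr13:44730524-44730773 (plus strand, the first of its 2 starts in the table), chr6:47595031-47595280 (minus strand) and chr6:71262282-71262531 (minus strand).
Kdm7a: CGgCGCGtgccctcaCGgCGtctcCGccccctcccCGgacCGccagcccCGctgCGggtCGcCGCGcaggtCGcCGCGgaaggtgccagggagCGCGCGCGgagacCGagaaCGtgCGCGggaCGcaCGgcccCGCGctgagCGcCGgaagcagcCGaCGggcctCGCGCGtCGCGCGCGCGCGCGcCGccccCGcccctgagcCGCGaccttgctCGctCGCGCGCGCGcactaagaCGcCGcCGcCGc
Jarid2: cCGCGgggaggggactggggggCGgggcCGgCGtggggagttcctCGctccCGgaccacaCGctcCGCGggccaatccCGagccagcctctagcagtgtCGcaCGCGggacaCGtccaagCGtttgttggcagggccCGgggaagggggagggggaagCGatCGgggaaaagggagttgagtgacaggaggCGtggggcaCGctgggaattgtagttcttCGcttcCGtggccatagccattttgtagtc
Ezh2: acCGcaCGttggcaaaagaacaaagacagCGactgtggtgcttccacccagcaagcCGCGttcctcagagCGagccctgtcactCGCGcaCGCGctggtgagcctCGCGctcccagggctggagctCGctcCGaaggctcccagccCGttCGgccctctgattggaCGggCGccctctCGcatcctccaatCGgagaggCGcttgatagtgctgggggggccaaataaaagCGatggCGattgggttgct
Smyd1: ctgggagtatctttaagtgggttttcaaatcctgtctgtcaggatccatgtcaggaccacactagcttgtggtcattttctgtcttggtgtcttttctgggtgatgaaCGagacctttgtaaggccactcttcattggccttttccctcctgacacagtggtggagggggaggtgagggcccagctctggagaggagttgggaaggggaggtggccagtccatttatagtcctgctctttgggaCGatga
The capitals are dense in the first 3 sequences and nearly missing in that of Smyd1. Counted over the full window of 250 bases before to 50 bases after the start, Kdm7a had 65 CpG dinucleotides, Jarid2 24, Ezh2 31 and Smyd1 3. Of all windows, 23.3% held fewer than that of Smyd1.

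CpG-dense starts were the common form among the members. The table of promoters matched 31 of the 41 genes with 40 windows of 300 bases, and 38 of the 40 (95%) held at least 10 CpG dinucleotides, against 43.5% of all 32851 windows. All windows cover 27025 genes, not only those tested here, and no background matched for expression level was taken. A window of Kdm3a and a window of Kdm4c held 0, and both genes also had CpG-dense windows. The median was 28 CpG in a window for the members and 7 for all, and the median GC content was 64.3% against 52.7%. The count of 65 for Kdm7a was the highest of the members, where the highest of all windows was 67. On either strand the letters TAATG, a core read by the Isl1 homeodomain, occurred in 4 of the 40 windows (10.0%), those of Kdm3a, Kdm4c, Kdm5b and Kdm8, against 26.8% of all windows. The letters TTTGGCGC and TTTCCCGC, forms read by E2F factors, occurred in 1 window each, of Ezh2 and of Suz12 (2.5% each, against 0.5% and 1.1% of all), and the TATA-box letters TATAAA in 1, at the start of Jarid2 not shown above (2.5% against 13.6%). No background matched for GC content was used. The lower shares of TAATG and TATAAA, which are rich in A and T, therefore cannot be told apart from base composition. A match of letters is a description of the sequence and shows no binding.

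None of the 39 members tested passed the adjusted threshold of 0.05 in edgeR, where 2.45% of all 12715 genes did (1.94% lower and 0.503% higher in Isl1_KO). The smallest adjusted p of a member was 0.0603, for Jarid2, followed by 0.0658 for Kdm7a. At an unadjusted p under 0.05 there were 9 members, 7 of them lower and 2 higher, beside a background of 23.3% of all genes (12.2% lower and 11.0% higher). A share of 9 in 39 is close to that background. The lower ones were Kdm7a, Jarid2, Setd7, Kdm6b, Kdm4a, Prdm1 and Dot1l, and the higher ones Kdm2b and Setd1a. DESeq2, run as an alternative, put Kdm7a (adjusted p 0.0160) and Jarid2 (adjusted p 0.0395) past 0.05, where its background was 4.43%. The criteria of the study, a fold change over 1.5 with an unadjusted p under 0.05 in DESeq2, were met by 1 member, Kdm7a, and by 5.89% of all genes. These counts depended on single libraries. Without Isl1_KO 1 or Isl1_KO 2, 20 and 19 members passed in edgeR, in fits where the spread comes from the nearly equal control libraries and 6350 and 4176 of all genes passed. The criteria of the study were met by no member without control 1, and by Prdm1 and Suv39h1 in place of Kdm7a without Isl1_KO 1.

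The members lay close to no change. Their log2 fold changes, Isl1_KO over control, ran from -0.60 (Kdm7a) to 0.31 (Kdm8), with 17 above and 22 below 0 and a median of -0.035, while the median of all tested genes was -0.0027. Of the 39, 33 (84.6%) were within 0.25 of 0 on the log2 scale, against 61.7% of all tested genes, which had lower levels (a median of 6.29 RPKM, reads scaled to transcript length and library size, against 13.7 for the members) and wider errors (a median SE of 0.13 against 0.080 on the log2 scale). The 95% interval of the log2 fold change lay wholly within 0.58 of 0, the 1.5-fold limit of the study, for 34 members and within 1, or 2-fold, for 38. The exception was Suv39h1, with an interval from -1.24 to 0.59. These intervals rest on the edgeR errors, which take a common spread for both groups. DESeq2 gave wider errors, such as 0.13 against 0.061 for Dot1l and 0.13 against 0.073 for Jarid2. Intervals from DESeq2 were not taken, so these counts hold for the edgeR fit only. Both Isl1_KO libraries were above both control libraries in 11 members and below them in 14, in CPM, and the remaining 14 overlapped; among all genes 58.1% did not overlap (29.1% above and 29.0% below).

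**Figure D1:**
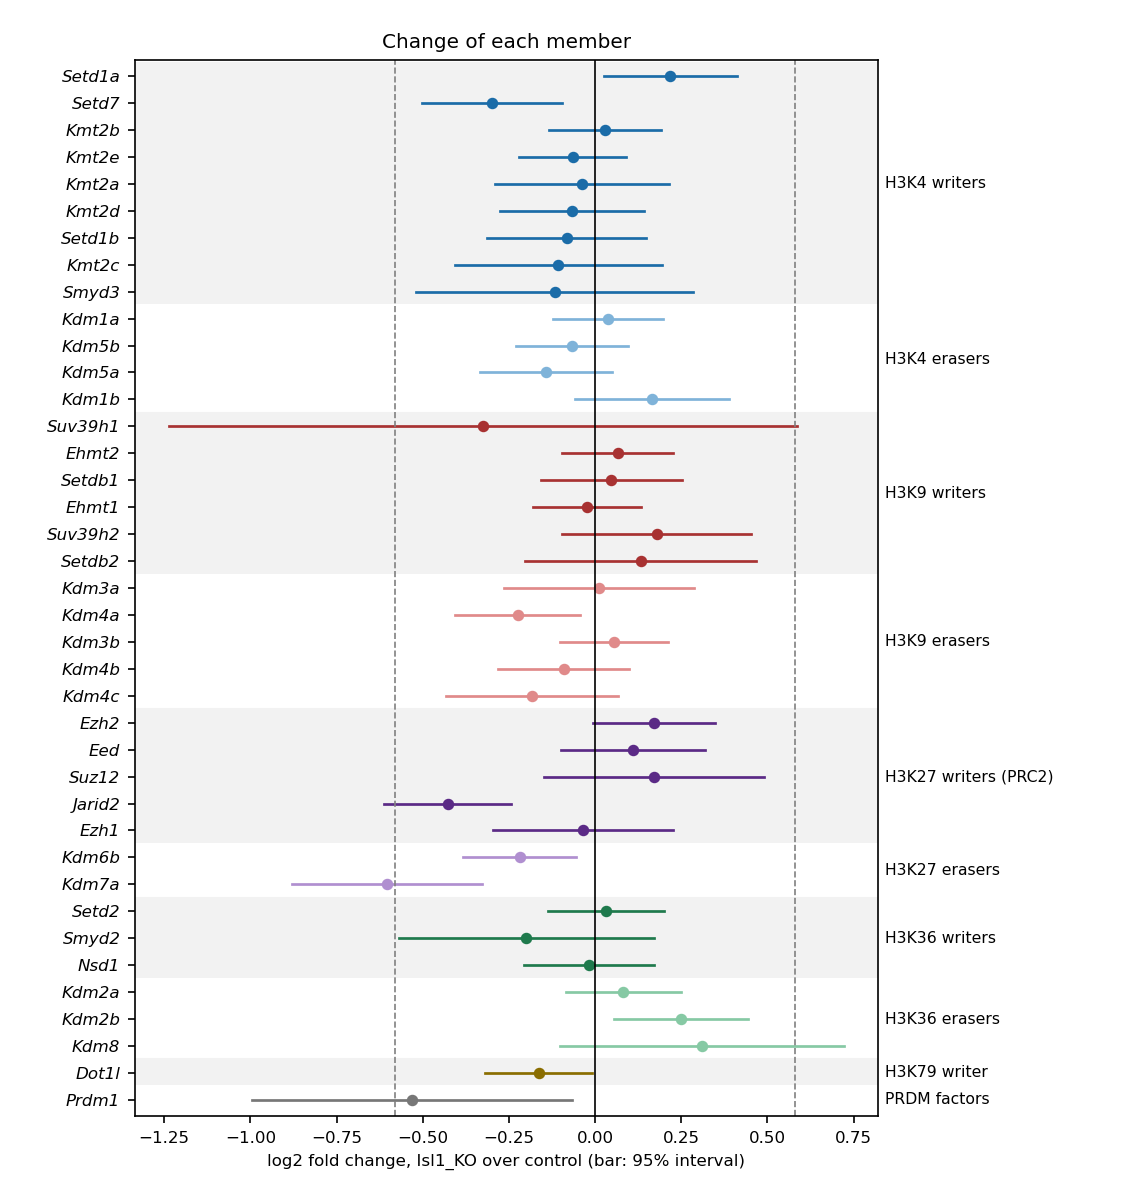
Log2 fold change of the 39 tested members, Isl1_KO over control (points, x axis), with the 95% interval from the edgeR fit (bars), grouped by targeted residue and ordered by level within a group. Dashed lines mark 0.58 on either side of 0; most intervals lie between them and that of Suv39h1 is the widest.

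Genes of H3K27 methylation gave 2 of the 3 lowest fold changes. Kdm7a and Kdm6b, its erasers among the members, were both lower in Isl1_KO, and so was Jarid2, while the catalytic and core subunits of the writer complex PRC2 were level or slightly higher. Kdm7a (listed as Jhdm1d, NM_001033430, mm9 chr6:39086622-39156788, minus strand), a Jumonji eraser of dimethylated H3K9 and H3K27, had 732, 730, 634 and 675 counts in control 1, control 2, Isl1_KO 1 and Isl1_KO 2, or 4.91, 4.73, 2.88 and 3.60 RPKM. Both Isl1_KO libraries were below both control libraries, and the log2 fold change was -0.60 (SE 0.11, 95% interval -0.88 to -0.33, adjusted p 0.0658), a level 34.2% lower. Kdm6b, also called Jmjd3, removes methyl groups from trimethylated H3K27. It had 20.2 and 20.5 RPKM in control and 17.8 and 17.7 RPKM in Isl1_KO, with no overlap and the Isl1_KO libraries nearly equal. Its log2 fold change of -0.22 (SE 0.064, adjusted p 0.139) did not pass the test.

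Jarid2 (NM_001205043, mm9 chr13:44824843-45017012, plus strand) is a Jumonji-family protein without demethylase activity that guides PRC2 to its sites. It was at 15.7 and 16.3 RPKM in control and 11.4 and 12.9 RPKM in Isl1_KO, so the groups were apart by more than either pair's gap. The log2 fold change was -0.43 (SE 0.073, 95% interval -0.61 to -0.24, adjusted p 0.0603), a level 25.6% lower, and its 3 transcript entries differed by 0.0020 in log2 fold change. Ezh2, the catalytic subunit, had 41.3 and 41.4 RPKM in control and 44.6 and 50.2 in Isl1_KO, both above control, a log2 fold change of 0.17 (SE 0.070, adjusted p 0.227). Suz12, which holds the complex together, was at 20.2 and 20.3 RPKM in control, 19.97 in Isl1_KO 1 and 26.6 in Isl1_KO 2. Its log2 fold change of 0.17 (adjusted p 0.462) therefore came from Isl1_KO 2 alone and was -0.016 without that library. Eed, the reader of the mark, had a log2 fold change of 0.11 (adjusted p 0.464), or 0.033 without Isl1_KO 2, and Ezh1, the less active paralogue of Ezh2, differed by -0.035 (adjusted p 0.870). Ezh2 and Suz12 had their highest level in Isl1_KO 2, which also had the highest summed cell cycle markers of the 4 libraries; the part of this was not tested.

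Summed per library, the 5 PRC2 genes came to 103 RPKM in both control libraries, 102 in Isl1_KO 1 and 119 in Isl1_KO 2, and both erasers to 25.1 and 25.2 in control and 20.7 and 21.3 in Isl1_KO. The ratio of H3K27 writers to erasers was 4.10 in each control library and 4.91 and 5.58 in the Isl1_KO libraries, a difference of 0.35 on the log2 scale with no overlap. The writer sum covers the partner subunits Eed, Suz12 and Jarid2 as well as Ezh1 and Ezh2, whereas the H3K4 sum has no COMPASS partner subunits. Levels of these ratios therefore do not compare between residues. The eraser sum covers members only and leaves out Kdm6a, a demethylase of the same family as Kdm6b. Kdm6a had 10.2 and 10.6 RPKM in control and 10.4 and 11.6 in Isl1_KO, and a ratio with Kdm6a in the sum was not taken. For 2 libraries against 2 the smallest two-sided p of an exact permutation test is 0.333, and such ratios are given as descriptions. The Ezh2 to Ezh1 ratio was 9.74 and 9.36 in control and 11.0 in both Isl1_KO libraries.

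**Figure D2:**
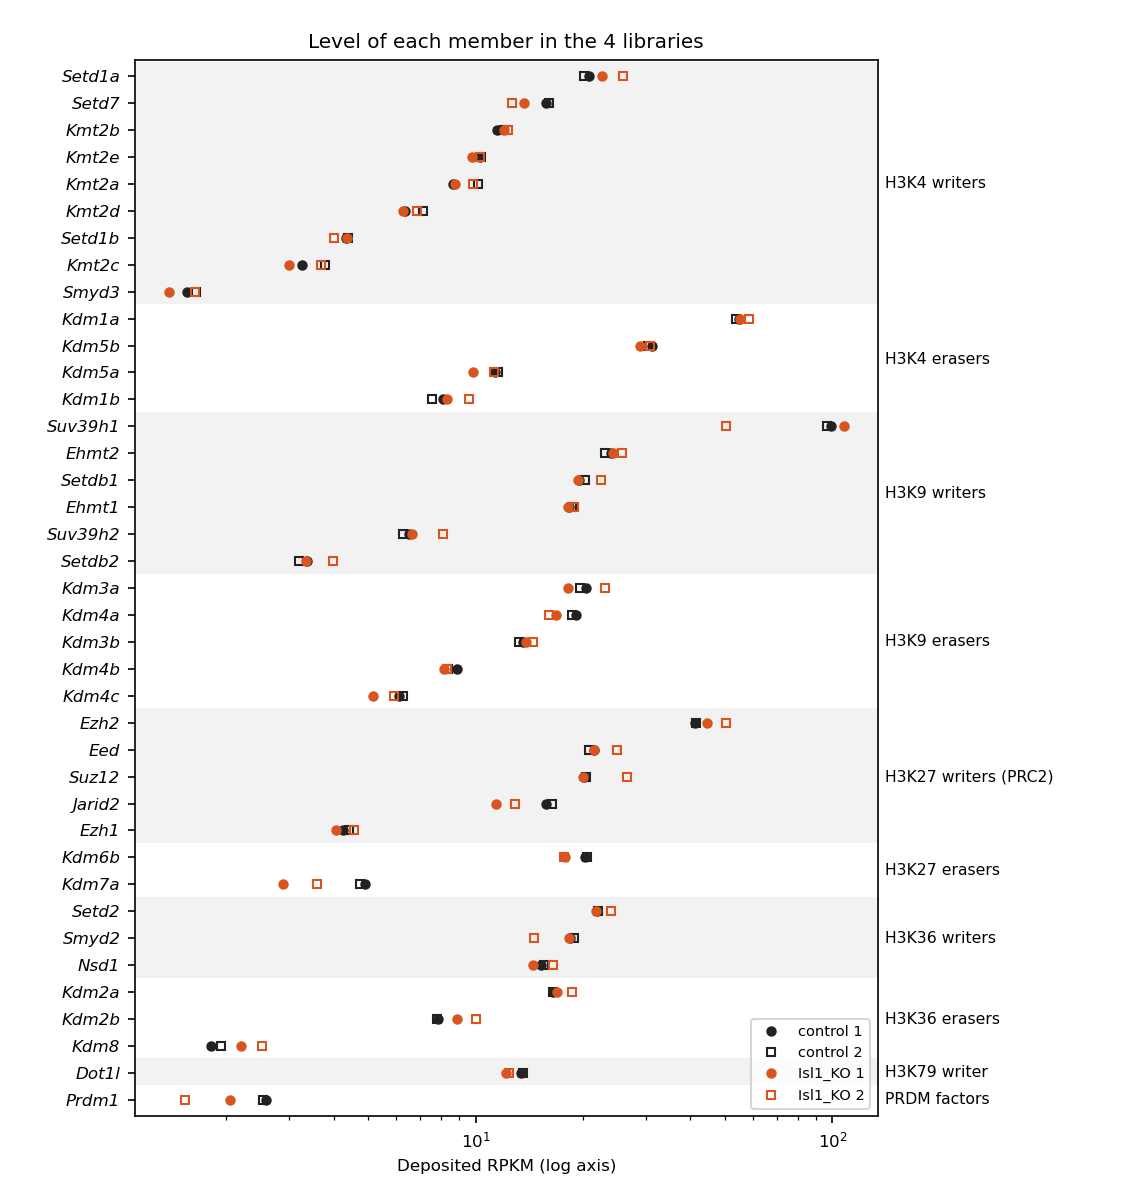
Deposited RPKM of the 39 tested members in each of the 4 libraries (log x axis), control in black and Isl1_KO in orange, filled circles for replicate 1 and open squares for replicate 2. Control symbols nearly coincide for most genes; Suv39h1 in Isl1_KO 2 is at 50.2 RPKM while the other 3 libraries lie between 96.6 and 108.

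Among the H3K4 writers, Setd7 was lowest in Isl1_KO relative to control and Setd1a highest, and the MLL-family genes moved little. Setd7, a monomethyltransferase of H3K4 and of other proteins, had 15.8 and 16.0 RPKM in control and 13.6 and 12.7 RPKM in Isl1_KO, below control in both. This gave a log2 fold change of -0.30 (SE 0.080, 95% interval -0.50 to -0.097, adjusted p 0.120). Setd1a, a catalytic subunit of a COMPASS complex that trimethylates H3K4 at promoters, had 20.8 and 20.1 RPKM in control and 22.6 and 25.9 in Isl1_KO, above control in both. The difference was 0.22 on the log2 scale (SE 0.076, adjusted p 0.182), and its exons overlap those of Hsd3b7 on the same strand, so reads may be shared. Its paralogue Setd1b had 4.34, 4.39, 4.37 and 4.0 RPKM and a log2 fold change of -0.083, and the Setd1a to Setd1b ratio went from 4.80 and 4.58 in control to 5.17 and 6.48 in Isl1_KO.

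The 4 large MLL genes, Kmt2a and Kmt2b (promoters of developmental genes) and Kmt2c and Kmt2d (enhancers), had log2 fold changes of -0.038, 0.028, -0.11 and -0.068, all overlapping between the groups in CPM. Kmt2d had 6.35, 7.13, 6.27 and 6.83 RPKM, and its interval ran from -0.28 to 0.14. Kmt2a and Kmt2c differed by 0.23 and 0.21 between the control libraries on the log2 scale, more than between the groups, beside a median control gap of 0.043 over all tested members. Kmt2e, an MLL relative with little or no methyltransferase activity, was at -0.066 and Smyd3, the least expressed member tested with 1.38 to 1.65 RPKM, at -0.12. Over the 9 H3K4 writers, 2 were above 0 and 7 below, with a median of -0.068, and their summed level was 82.5 and 85.6 RPKM in control and 81.8 and 87.2 in Isl1_KO.

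Transcript length moved with the fold changes of all genes and the members were long, with a median of 5148 nucleotides against 3009 for all tested genes. The median log2 fold change of all tested genes fell from 0.076 in transcripts up to 1000 nucleotides to -0.076 between 5000 and 8000, -0.087 between 8000 and 12000 and -0.14 beyond 12000. The 4 members beyond 12000 nucleotides (Kmt2a, Kmt2c, Kmt2d and Nsd1) had a median of -0.053. With an offset for length in the fit, the tested members stood at 26 above and 13 below 0 with a median of 0.054, and the medians of the H3K4 writers, H3K4 erasers and H3K36 writers turned from below to above 0 (0.054, 0.023 and 0.12). Kdm7a and Jarid2 stayed lower with that offset, at -0.49 (adjusted p 0.0821) and -0.36 (adjusted p 0.0730).

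**Figure D3:**
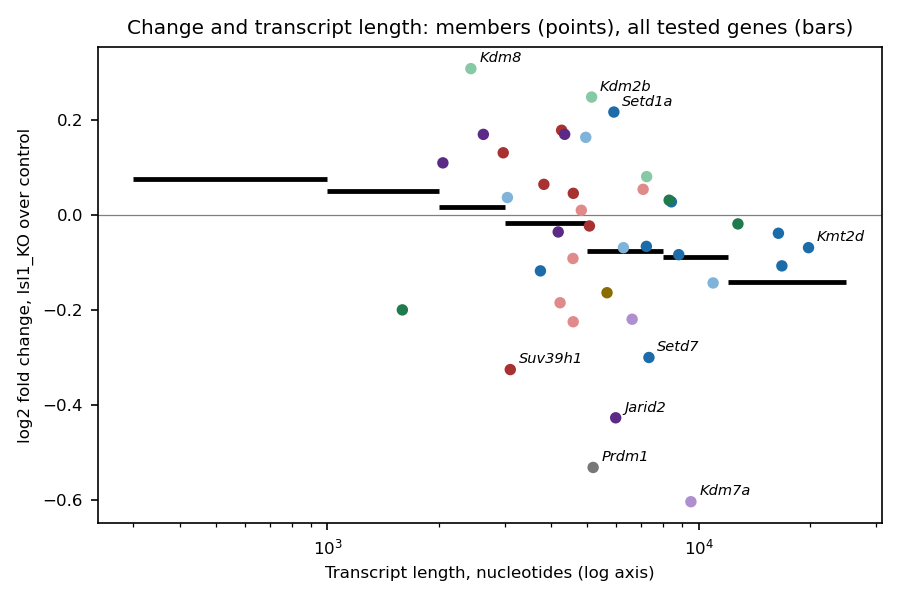
Log2 fold change, Isl1_KO over control (y axis), against transcript length in nucleotides (log x axis) for the 39 tested members (points, coloured by residue class, the same colours as in the plot of gaps within the Isl1_KO pair). Black bars give the median of all tested genes in 7 length ranges, falling from 0.076 to -0.14; Kdm7a, Prdm1 and Jarid2 lie well below the bars of their ranges.

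The H3K4 erasers were nearly level. Kdm1a (LSD1), the amine oxidase that strips methyl groups from H3K4, was the second most expressed member, with 54.7 and 53.6 RPKM in control and 54.9 and 58.3 in Isl1_KO. Its log2 fold change was 0.037, with a 95% interval of -0.12 to 0.20. Its relative Kdm1b had 8.11 and 7.53 RPKM in control and 8.30 and 9.56 in Isl1_KO, just above control, and a log2 fold change of 0.16 (adjusted p 0.326). The Kdm1a to Kdm1b ratio was 6.75 and 7.12 in control and 6.61 and 6.10 in Isl1_KO. The Jumonji erasers of trimethylated H3K4, Kdm5a and Kdm5b, were at -0.14 and -0.068, both below control in CPM. Summed, the 4 erasers held 105 and 103 RPKM in control and 102 and 110 in Isl1_KO, and the ratio of H3K4 writers to erasers overlapped between the groups (0.782 and 0.831 against 0.802 and 0.792).

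Among the H3K9 writers, Suv39h1 differed more between the Isl1_KO libraries than any other member. Suv39h1 (NM_011514, mm9 chrX:7638297-7651886, minus strand), which trimethylates H3K9 in heterochromatin and is the only member on the X chromosome, was counted 4818 and 4866 times in control, 7733 in Isl1_KO 1 and 3073 in Isl1_KO 2. In RPKM these were 99.2, 96.6, 108 and 50.2, the highest mean of all members at 88.4. Isl1_KO 1 was thus slightly above control and Isl1_KO 2 55.1% below Isl1_KO 1, a gap of -1.16 on the log2 scale. The log2 fold change of -0.33 (SE 0.36, adjusted p 0.628) took its sign from 1 library, as it was 0.14 without Isl1_KO 2 and -1.02 without Isl1_KO 1. Both transcript entries of Suv39h1 gave the same picture, 0.0057 apart in log2 fold change.

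The paralogue Suv39h2 went the other way within the pair, with 6.51, 6.24, 6.64 and 8.08 RPKM and a log2 fold change of 0.18 (adjusted p 0.377), and it was highest in Isl1_KO 2. The Suv39h1 to Suv39h2 ratio was accordingly 15.2, 15.5 and 16.2 in control 1, control 2 and Isl1_KO 1 and 6.21 in Isl1_KO 2. An exon of Suv39h2 overlaps Dclre1c, and reads of both strands were counted together. Setdb1, which silences retroelements, and Setdb2 were at 0.046 and 0.13, and the partners Ehmt1 (GLP) and Ehmt2 (G9a), writers of dimethylated H3K9, at -0.023 and 0.065, none past the test. Their ratios shifted by little, from 1.31 and 1.23 to 1.34 and 1.36 for Ehmt2 to Ehmt1 and from 5.80 and 6.35 to 5.79 and 5.66 for Setdb1 to Setdb2. Carried by Suv39h1, the summed level of the 6 H3K9 writers was 171 and 168 RPKM in control, 179 in Isl1_KO 1 and 129 in Isl1_KO 2.

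**Figure D4:**
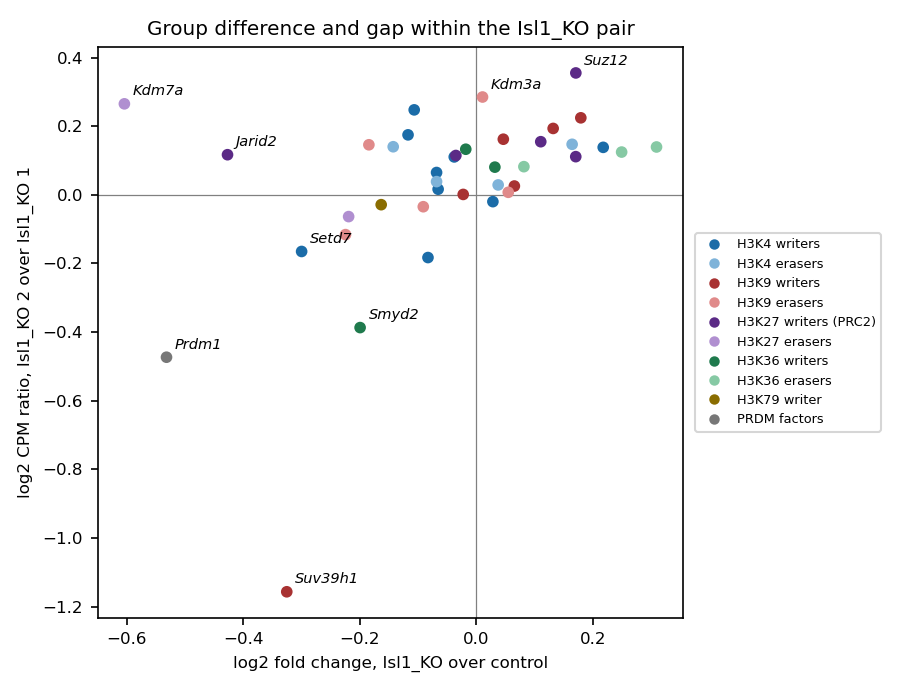
Log2 CPM ratio of Isl1_KO 2 over Isl1_KO 1 (y axis) against the log2 fold change of Isl1_KO over control (x axis) for the 39 tested members, coloured by residue class. Suv39h1 lies apart at a gap of -1.16; Kdm7a, furthest left, and Jarid2 have positive gaps of 0.27 and 0.12.

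The Isl1_KO pair varied more than the control pair. The median absolute gap of the members was 0.13 between the Isl1_KO libraries and 0.043 between the control libraries on the log2 scale (0.19 and 0.082 for all tested genes), and in 16 members the Isl1_KO gap was larger than the group difference. Counting noise alone would give a chi-square per gene of about 1. For the members it was 1.92 in the control pair and 46.4 in the Isl1_KO pair, or 8.36 without Suv39h1. For all tested genes it was 1.13 and 19.2, so the control libraries differed by little more than sampling noise. They were kept as 2 samples, and whether they came from separate clones was not tested. The errors, adjusted p-values and intervals given here take the control libraries as independent. If they were not, the errors and intervals are too narrow.

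None of the H3K9 erasers passed the test, and 3 of the 5 tested were below control in both Isl1_KO libraries, as were 29.0% of all tested genes. Kdm4a, a Jumonji eraser of trimethylated H3K9 and H3K36, had 19.1 and 18.7 RPKM in control and 16.8 and 16.1 in Isl1_KO, below control in both, with a log2 fold change of -0.22 (SE 0.071, adjusted p 0.158). The relatives Kdm4b and Kdm4c were at -0.091 and -0.18, below control in CPM, whereas Kdm4d had 1, 0, 1 and 0 counts, under the 3 counts taken as a floor, and got no test. Kdm3a, an eraser of mono- and dimethylated H3K9 and the most expressed of the class, had 20.4 and 19.6 RPKM in control, 18.1 in Isl1_KO 1 and 23.0 in Isl1_KO 2. Its log2 fold change of 0.011 hid a gap of 0.28 within the Isl1_KO pair, and Kdm3b was at 0.055. The H3K9 erasers summed to 68.0, 66.1, 62.0 and 67.8 RPKM. Kdm7a (log2 fold change -0.60), which also acts on dimethylated H3K9, was placed with the H3K27 erasers. It is therefore in neither the count nor the sum given here.

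With each gene placed in a single class, the H3K36 erasers were the one class with all its values above control. Kdm4a, an eraser of H3K36 as well as H3K9, was placed with the H3K9 erasers and was lower. Each of the 3 H3K36 erasers had both Isl1_KO libraries above both control libraries, as had 29.1% of all tested genes, and the class median was 0.25 on the log2 scale. None of the 3 passed the adjusted threshold. Kdm2b, which also ties a Polycomb complex to unmethylated CpG islands, had 7.82 and 7.78 RPKM in control and 8.85 and 10.0 in Isl1_KO. Kdm2b thus differed by 0.25 on the log2 scale (SE 0.077, 95% interval 0.055 to 0.44, adjusted p 0.150), and an exon overlaps Orai1 on the opposite strand, whose reads may be counted with it. Kdm8 (listed as Jmjd5), a Jumonji oxygenase reported to act on dimethylated H3K36, had 1.81 and 1.93 RPKM in control and 2.20 and 2.52 in Isl1_KO. A log2 fold change of 0.31 (SE 0.16, adjusted p 0.319) was the highest of the members but with a wide interval at this low level. Kdm2a, the most expressed of the 3 at 16.4 and 16.5 RPKM in control and 16.9 and 18.6 in Isl1_KO, differed by 0.082 (adjusted p 0.501).

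On the writing side of H3K36, Setd2, the enzyme that trimethylates this residue and travels with RNA polymerase II, was level at 21.9 and 22.0 RPKM in control and 21.8 and 24.0 in Isl1_KO, with a log2 fold change of 0.032 (95% interval -0.14 to 0.20). Nsd1, a dimethyltransferase, was at -0.018. Smyd2, a heart- and muscle-expressed enzyme that also methylates proteins other than histones, had 18.3, 18.9 and 18.3 RPKM in control 1, control 2 and Isl1_KO 1 and 14.6 in Isl1_KO 2. The log2 fold change of -0.20 (adjusted p 0.458) therefore rested on Isl1_KO 2. The ratio of H3K36 writers to erasers was 2.13 and 2.15 in control and 1.95 and 1.77 in Isl1_KO, 0.21 lower on the log2 scale with no overlap. The eraser sum left out Kdm4a (log2 fold change -0.22), which also acts on H3K36 but was counted with the H3K9 erasers. Its relatives Kdm4b and Kdm4c, also counted there, were at -0.091 and -0.18. A ratio with these genes in the sum was not taken, so the shift holds only for the classes as drawn here.

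**Figure D5:**
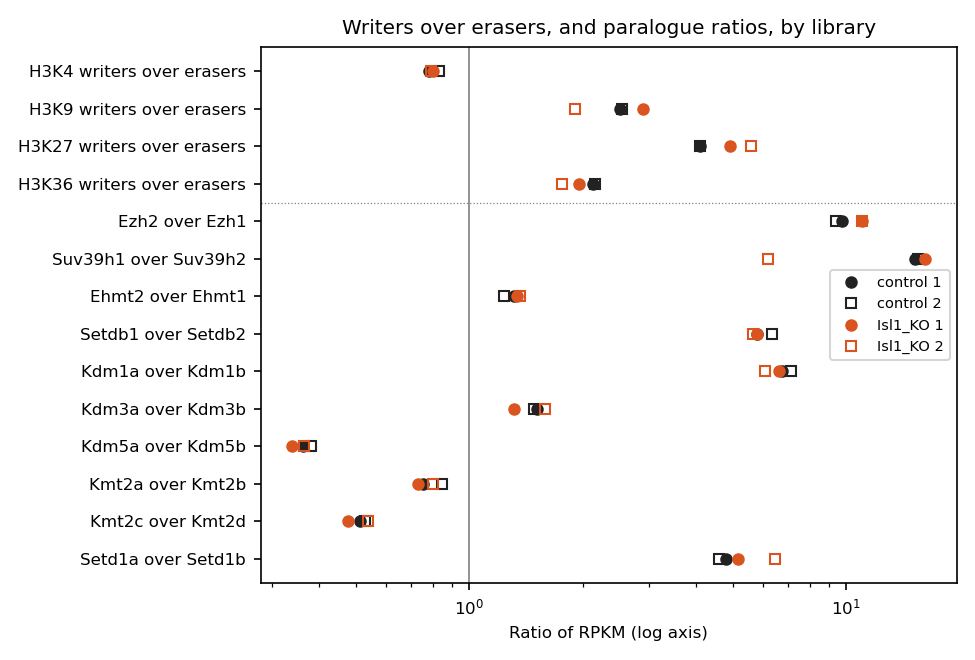
Ratio of summed RPKM of writers over erasers for 4 residues (top) and of 10 paralogue pairs (bottom) in each library (log x axis), control in black and Isl1_KO in orange. The H3K27 ratio is higher in both Isl1_KO libraries (4.91 and 5.58 against 4.10) and the H3K36 ratio lower (1.95 and 1.77 against 2.13 and 2.15), while Suv39h1 over Suv39h2 drops to 6.21 in Isl1_KO 2 only. Kdm4a, Kdm4b and Kdm4c count as H3K9 erasers only, Kdm7a as an H3K27 eraser only, and Kdm6a is in no ratio. The H3K27 writers include partner subunits of PRC2, so the levels of the ratios do not compare between residues.

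Dot1l, the only H3K79 methyltransferase, was slightly lower, with 13.4 and 13.5 RPKM in control and 12.1 and 12.4 in Isl1_KO. Its groups did not overlap, and the log2 fold change was -0.16 (SE 0.061, adjusted p 0.201). Prdm1 (Blimp1), a SET-related zinc-finger repressor that works through recruited enzymes, was weakly expressed at 210, 213, 246 and 157 counts, or 2.59, 2.53, 2.05 and 1.53 RPKM. It had a log2 fold change of -0.53 (SE 0.18, 95% interval -0.997 to -0.067, adjusted p 0.179), the second lowest of the members, with a gap of -0.47 between the Isl1_KO libraries. Prdm16 had 5, 2, 3 and 5 counts and was not tested. The remaining paralogue ratios, Kdm3a to Kdm3b, Kdm5a to Kdm5b, Kmt2a to Kmt2b and Kmt2c to Kmt2d, overlapped between the groups, with differences of -0.050, -0.076, -0.062 and -0.042 on the log2 scale.

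Around the 41 genes, further genes of the machinery were read in the same edgeR test, which 2.45% of all 12715 tested genes passed. Of 27 other histone lysine methyltransferases 23 were tested and 1 passed, lower in Isl1_KO. This was Smyd1, known for its part in sarcomere assembly in heart and skeletal muscle, and it fell from 730 and 786 counts in the controls to 24 and 9 without Isl1, a log2 fold change of -5.98 (SE 0.27, adjusted p 0.00255). Mecom, a PRDM-family gene known from blood stem cells, had 262, 267, 103 and 27 counts and did not pass in edgeR (log2 fold change -2.50, adjusted p 0.0707), while it met the criteria of the study and passed in DESeq2 (adjusted p 0.0396). Of 10 other demethylases 2 passed, both lower and both Y-linked: Uty had 96, 104, 0 and 0 counts and Kdm5d 23, 14, 1 and 0. Their X-linked partners Kdm6a and Kdm5c differed by 0.054 and 0.075 on the log2 scale, and the sum of Kdm6a and Uty was 11.4 and 11.8 RPKM in control and 10.4 and 11.6 in Isl1_KO, that of Kdm5c and Kdm5d 12.7 and 13.8 against 13.6 and 14.2. What set the Y-linked genes at 0 to 1 counts in the Isl1_KO clones was not tested. 2410016O06Rik (Riox1), another Jumonji oxygenase, was counted 102, 114, 255 and 308 times in control 1, control 2, Isl1_KO 1 and Isl1_KO 2, met the criteria of the study, passed in DESeq2 (adjusted p 0.0217) and did not pass in edgeR (log2 fold change 0.94, adjusted p 0.0799). No gene passed among 15 partner subunits of COMPASS, 8 of PRC2 and 19 of other complexes, with median log2 fold changes of 0.14, -0.020 and 0.034.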

How the data were processed

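Poly(A) RNA of 4 libraries, 2 control and 2 Isl1_KO, was analysed, with groups and replicate numbers taken from the sample titles, which name a knockout where the design text of the series has a knockdown. The authors mapped stranded reads to mm9 with STAR (introns of 20 to 500000 bases) and used HOMER to count exon reads per RefSeq transcript without regard to strand, and the deposited counts are these whole reads. The authors derived the deposited RPKM from counts and transcript length with edgeR. The authors' deposited table also holds their own DESeq2 comparison, namely log2 fold changes with errors, p-values, a Wald statistic as a score and a mean normalised signal, and none of these was used. For STAR, HOMER, DESeq2 and edgeR, no version used by the authors is given in the sources used here. The number of unmatched columns of per-sample values was 0.

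Of 31507 transcript entries, the one with the highest summed raw count was kept for each of 20701 symbols, and 16 of the members had several entries, which share reads. Groups were compared in edgeR 4.0.16 (R 4.3.3) by its two-sided quasi-likelihood test with TMM factors, filterByExpr and no covariate, and p-values were adjusted after Benjamini-Hochberg over the 12715 genes tested, with 0.05 as threshold. The criteria of the study were applied with the Wald test of DESeq2 1.42.0. The scripts were tested on simulated data. CPM used effective library sizes, RPKM is as deposited, and overlap between groups was read in CPM. The floor of 3 counts was 0.231 to 0.341 CPM, and floors cover counting error only, as the reads carry no molecular identifiers. Members are named in full by rule: past a threshold, or the largest change or highest level of their residue class. The members, gene lists and tests were chosen with earlier results of these data known. Positions of genes are those of GENCODE vM1 on NCBIM37 (mm9), and all 41 were placed. Promoters are from RefSeq (GRCm38.p6). Exons of 6 members overlap another protein-coding gene, and with counting on both strands reads cannot be assigned between them. The offset for length was a loess curve of each library on log2 transcript length (span 0.5). Same-numbered libraries did not deviate together (Pearson's r 0.013 across 10763 genes, which are not independent replicates). Python 3.11.15, pandas 2.3.3, numpy 2.4.6 and matplotlib 3.10.9 served for sequences and figures.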

Additional observations from a re-analysis of the deposited data

How the results depend on the processing

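The number of members past the adjusted threshold, 0 in the reported fit, was 2 (Jarid2 and Kdm7a) with DESeq2 and 2 (the same pair) with no filter on low counts, where all genes gave 602 and 492 calls in place of 311. With a replicate block it was 1 (Kdm7a, adjusted p 0.0494), among 454 calls, 294 of them shared with the 311; replicate numbers only name the samples here. Leaving out one library moved the members called between 0 and 20, all genes called between 27 and 6350, and the members at the criteria of the study between 0 (without control 1) and 2 (Prdm1 and Suv39h1, without Isl1_KO 1), against 1 with all libraries. The upper ends, 6350 without Isl1_KO 1 and 4176 without Isl1_KO 2, came with fits whose spread rests on the control pair alone, with a biological coefficient of variation of 1.26% against 16.3% in the Isl1_KO pair. Without a control library the members kept their log2 fold changes for Kdm7a (-0.63 and -0.58) and Jarid2 (-0.45 and -0.40), with adjusted p from 0.508 to 0.613. Class medians moved with the length offset, to 0.054 for H3K4 writers, 0.023 for H3K4 erasers, 0.118 for H3K36 writers and -0.044 for H3K9 erasers, and to nearly the same with the length offset and the replicate block together (0.054, 0.023, 0.117 and -0.044). The median of the H3K9 erasers was -0.133 with DESeq2 and -0.125 with no filter. Both of these medians include Kdm4d, at 1, 0, 1 and 0 counts, which the reported fit left out. Leaving out one library gave -0.150 to 0.0026 for H3K4 writers, -0.034 to 0.047 for H3K36 writers, -0.137 to -0.050 for H3K9 erasers and 0.044 to 0.102 for H3K9 writers. Library size cancels in a ratio within a library, so effective library sizes are no check of the ratios. Leaving out one library, an alternative chosen after seeing the data, turned the sign of 6 of the 14 ratio differences: Suv39h1 over Suv39h2 (-1.31 to 0.077), H3K9 writers over erasers (-0.40 to 0.19), H3K4 writers over erasers (-0.059 to 0.027), Kdm3a over Kdm3b (-0.19 to 0.089), Kmt2a over Kmt2b (-0.145 to 0.021) and Kmt2c over Kmt2d (-0.132 to 0.048). The H3K27 and H3K36 differences ran from 0.26 to 0.45 and from -0.28 to -0.13.

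Signs turned in the members that follow. With the length offset, and with it plus the replicate block, log2 fold changes became 0.123 and 0.125 for Kmt2a, 0.054 and 0.054 for Kmt2c, 0.109 and 0.109 for Kmt2d, 0.022 and 0.022 for Kmt2e, 0.118 and 0.117 for Nsd1, 0.023 and 0.019 for Setd1b, 0.0067 and 0.0070 for Kdm5b, 0.036 and 0.036 for Ehmt1, and 0.00031 and 0.00024 for Ezh1. Leaving out one library spanned 0 for Ezh1 (-0.092 to 0.022), Kdm3a (-0.137 to 0.147), Kmt2a (-0.150 to 0.082), Kmt2b (-0.0044 to 0.061), Kmt2c (-0.235 to 0.011), Kmt2d (-0.150 to 0.017), Nsd1 (-0.085 to 0.047), Setd1b (-0.178 to 0.0058), Setd2 (-0.0079 to 0.072), Setdb1 (-0.036 to 0.125), Suv39h1 (-1.02 to 0.14) and Suz12 (-0.016 to 0.34). The cause was not tested. The replicate block changed no other call of a member. Depth limited Kdm4d and Prdm16 most, at or near the floor of 3 counts.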
